A study of Homo sapiens with 12 samples.

Results

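Nonsense-mediated mRNA decay (NMD) is the pathway that removes transcripts on which translation stops too early. The 9 factors described here are the helicase UPF1, its partners UPF2, UPF3A and UPF3B, the kinase complex SMG1, SMG8 and SMG9, and the effectors SMG5 and SMG6. They were chosen by gene symbol among the 26334 genes of the count tables, and all 9 were found. The choice used no measured value as a rule, but it was made with earlier results of these data known.

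RNA was sequenced from A549 cells, an epithelial line from a human lung adenocarcinoma, in 12 libraries. The cells had been infected with lentivirus and selected with puromycin, and expressed an shRNA that targets RNF113A, a spliceosome subunit (shRNF113A), or a control shRNA (shControl). Each population was left untreated or received Cisplatin, a platinum drug that crosslinks DNA, at 25 µg/ml for 20 h per the labels, which gave 4 conditions with 3 replicates each. The study's methods call the replicates biological. They give the Cisplatin dose of other assays in micromolar, a lower dose than the unit of the labels implies, so the sources disagree and the dose of these samples is uncertain. The study's discussion gives a longer contact with Cisplatin for all its experiments than the labels do, so the time is uncertain too. The labels name 1 control and 1 targeting shRNA and do not say whether replicates came from separate infections, so the p-values measure the spread between these libraries.

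In NMD, a ribosome that stops upstream of an exon junction complex recruits UPF1, which the UPF2 and UPF3 proteins tie to that complex. SMG1 then phosphorylates UPF1, while SMG8 and SMG9 hold the kinase in check. Phosphorylated UPF1 binds SMG6, an endonuclease that cuts the transcript near the stop, and SMG5, an adaptor that brings in phosphatase and the enzymes of deadenylation and decapping. Several of these mRNAs are themselves known NMD targets, and UPF1, UPF3A and UPF3B have known alternative coding segments.

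The long UPF3B exon is shown because it was the only splicing event called, and the other 3 segments because they are known alternative forms whose levels are given with it. Each was read from the GRCh37 reference on the strand of its gene, 5′ to 3′. Capitals mark the alternative segment and lower case the 10 bases on each side. The reference annotation places all 4 inside the coding sequence of at least 1 transcript, and the length of each is a multiple of a codon. The UPF1 segment (chr19:18963881-18963913, plus strand, 33 nt) follows an internal 5′ splice site and is added when the downstream site is used instead. The UPF3A segment (chr13:115051777-115051875, plus strand, 99 nt) is a cassette exon. So are the short UPF3B segment (chrX:118974609-118974647, minus strand, 39 nt) and the long one (chrX:118977154-118977264, minus strand, 111 nt).
UPF1, 33 nt: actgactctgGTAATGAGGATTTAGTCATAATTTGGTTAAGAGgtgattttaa
UPF3A, 99 nt: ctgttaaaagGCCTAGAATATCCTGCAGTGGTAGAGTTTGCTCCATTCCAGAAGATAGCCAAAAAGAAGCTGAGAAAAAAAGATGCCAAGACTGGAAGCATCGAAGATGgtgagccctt
UPF3B, 39 nt: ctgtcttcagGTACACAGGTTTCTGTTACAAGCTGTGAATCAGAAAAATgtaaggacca
UPF3B, 111 nt: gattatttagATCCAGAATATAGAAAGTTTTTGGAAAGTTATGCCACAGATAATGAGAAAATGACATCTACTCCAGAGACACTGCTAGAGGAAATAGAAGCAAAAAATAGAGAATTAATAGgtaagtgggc

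The libraries held 33859097 to 56071514 read pairs, of which 26220526 to 45721152 were assigned to genes on their own strand. Depth differed by condition. The Cisplatin-treated depleted libraries held 38224892, 39414380 and 33859097 pairs, and every other library held 41490333 or more. The share of pairs not assigned was 22.6%, 21.8% and 22.6% in them and at most 18.9% in any other library. The part of these differences in the results was not tested. The epithelial markers KRT7, KRT8, KRT18 and CDH1 lay between 32.1 and 7449.6 CPM (read counts scaled to a common library size, here by TMM) in every library, KRT19 at up to 5.32 CPM, and no leukocyte marker (PTPRC, CD3E) exceeded 0.127 CPM. The summed endothelial markers (PECAM1, CDH5) reached at most 0.788 CPM and the summed fibroblast markers (COL3A1, PDGFRA) at most 0.898 CPM, with COL3A1 at 0.424 to 0.599 CPM in depleted and at up to 0.149 CPM in control cells. The 5 epithelial markers summed to 8503 to 14993 CPM in untreated control cells, 4607 to 6593 with Cisplatin, 14395 to 15822 in untreated depleted cells and 6479.7 to 6790.2 with Cisplatin. Their part in the results was not tested. RNF113A, the targeted gene, stood at 20.3, 19.5 and 19.8 CPM in untreated control cells and at 15.3, 15.8 and 16.8 CPM in untreated depleted cells, with a fitted log2 difference of −0.31 ± 0.09 (standard error; adjusted p = 0.0247). With Cisplatin it stood at 31.5, 28.9 and 27.7 CPM in control cells and at 25.8, 24.3 and 29.9 CPM in depleted cells. These groups overlapped, and depletion did not pass the test there (log2 fold change −0.14, adjusted p = 0.233). Replicate 2 of the control cells stood apart from replicates 1 and 3, both untreated and with Cisplatin, and replicate 3 of the Cisplatin-treated control cells held more intronic reads than the other control libraries. When untreated control replicate 2 was dropped, the rise of UPF3B with Cisplatin in control cells was 0.62 in place of 0.76 on the log2 scale and was still called. With any 1 library left out, the calls on expression given below were kept, except those whose loss is named.

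Expression was compared by edgeR's quasi-likelihood test on raw counts, and the calls were made at a Benjamini-Hochberg adjusted p under 0.05 over the 15352 genes tested. All 9 factors passed the filter on low counts. Cisplatin raised 7 of them and lowered 1 in the model with a term for drug and a term for depletion, where 34.8% of all genes were called higher and 32.1% lower, 66.8% in all. The median log2 fold change of the 9 factors was 0.54 and that of all genes tested 0.03. RNF113A depletion raised SMG5, SMG9, UPF1 and SMG8, 4 of the 9, and lowered none, against 23.5% of all genes called higher and 24.0% lower, 47.5% in all, and the median of the 9 was 0.05. In bulk RNA, a change in the share of cells of one state and a change of the RNA in each cell cannot be told apart.

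The changes were small. None of the 9 factors was called for either term when a fold change of at least 2 was also required, which 21.5% of all genes reached for Cisplatin and 11.0% for depletion. The plot of CPM shows each library.

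**Figure D1:**
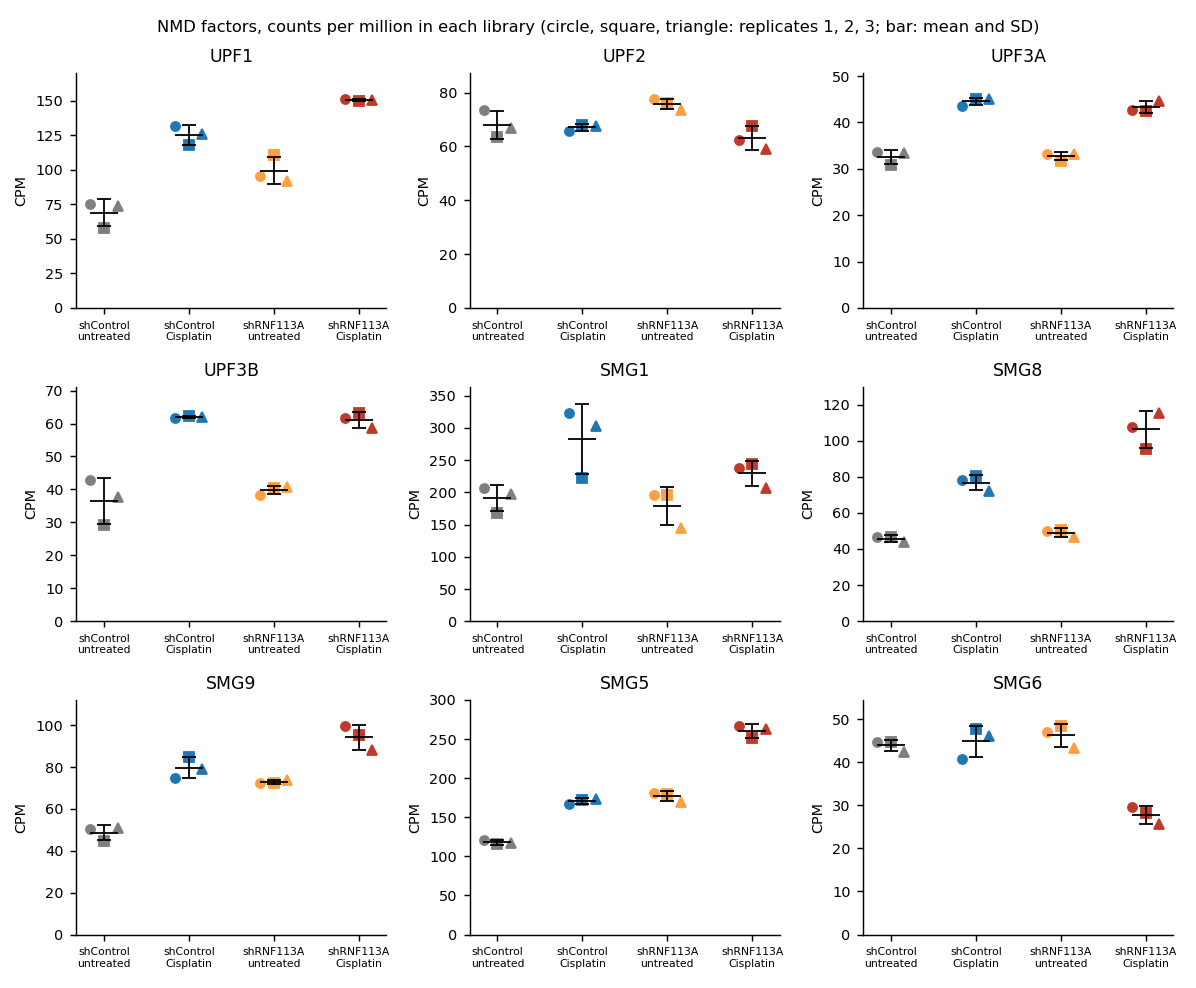
Level in CPM (vertical axis, linear and starting at 0) of the 9 NMD factors in the 12 libraries, by condition; circles, squares and triangles are replicates 1, 2 and 3, and the bars give the mean and SD of 3 libraries. SMG5 was highest and SMG6 lowest in the Cisplatin-treated depleted cells, each clear of the other 3 conditions.

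UPF1 is the helicase on which the pathway turns. It was at 75.2, 58.1 and 73.9 CPM in untreated control cells, and at 132, 118 and 126 CPM after Cisplatin. The depleted cells had it at 95.5, 111 and 91.9 CPM without the drug and at 151, 149.9 and 150.4 CPM with it. The 4 conditions did not overlap, and they ranked untreated control, untreated depleted, Cisplatin-treated control and Cisplatin-treated depleted cells from low to high. On the log2 scale, Cisplatin raised UPF1 by 0.86 ± 0.10 (standard error, adjusted p = 1.9e-05) in control cells. In depleted cells the rise was 0.60 ± 0.10 (adjusted p = 2.8e-04). Depletion of RNF113A raised it by 0.53 ± 0.10 where no drug was given (adjusted p = 0.0027). In Cisplatin-treated cells the value for depletion was 0.27 and missed the threshold (adjusted p = 0.0508).

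UPF2 links UPF1 to the UPF3 proteins. It was at 73.5, 63.5 and 66.7 CPM in untreated control cells, at 65.6, 68.0 and 67.7 CPM in Cisplatin-treated control cells and at 77.5, 76.2 and 73.6 CPM in untreated depleted cells. In depleted cells with Cisplatin it was at 62.3, 67.7 and 58.9 CPM, below each untreated depleted library. This fall passed the test (log2 fold change −0.27, standard error 0.07, adjusted p = 0.0082), though not under scaling to library size alone (−0.17, adjusted p = 0.0628), while the value in control cells was −0.02 (standard error 0.07, adjusted p = 0.856). The interaction, which is the difference between these values, was −0.25 (standard error 0.11) and did not pass the test (adjusted p = 0.194), so a difference between control and depleted cells was not shown.

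UPF3A and UPF3B are paralogs that can each bind the exon junction complex. UPF3A was at 33.6, 30.7 and 33.4 CPM in untreated control cells and at 43.6, 45.0 and 45.0 CPM with Cisplatin. In depleted cells it was at 33.3, 31.7 and 33.3 CPM without the drug and at 42.6, 42.5 and 44.7 CPM with it. UPF3B was at 42.9, 29.1 and 37.8 CPM in untreated control cells, at 61.8, 62.3 and 61.8 CPM with Cisplatin, at 38.4, 40.3 and 40.8 CPM in untreated depleted cells and at 61.7, 63.3 and 58.5 CPM in those with Cisplatin. Each paralog was higher in every Cisplatin-treated library than in any untreated one, and the untreated control and depleted cells overlapped, as did the treated ones.

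In the model without interaction, Cisplatin raised UPF3A by 0.43 on the log2 scale (standard error 0.05, adjusted p = 5.4e-06) and UPF3B by 0.69 (standard error 0.08, adjusted p = 4.8e-06). Depletion gave −0.02 for UPF3A (standard error 0.05, adjusted p = 0.813) and 0.05 for UPF3B (standard error 0.08, adjusted p = 0.626). UPF3B lies 17535 bases from RNF113A on chromosome X, on the same strand, so it is a close neighbour of the targeted gene.

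SMG1 is the kinase that phosphorylates UPF1. It was at 207, 168 and 197 CPM in untreated control cells and at 324, 222 and 304 CPM with Cisplatin, a rise of 0.57 on the log2 scale (standard error 0.15, adjusted p = 0.0066). The depleted cells gave 196, 197 and 145 CPM without the drug and 238, 243 and 207 CPM with it. That difference of 0.36 (standard error 0.15) was not called (adjusted p = 0.0588), although no untreated library reached the lowest treated one. It became a call under scaling to library size alone (0.45, adjusted p = 0.0161), and also without replicate 2 of the Cisplatin-treated control cells (adjusted p = 0.0358) or without replicate 2 of the untreated control cells (adjusted p = 0.0433), which left the value itself at 0.32 and 0.35. SMG1 has near-identical partial copies elsewhere on chromosome 16, so its counts are uncertain to the extent that such reads were split.

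SMG8 and SMG9 bind SMG1 and restrain its activity. SMG8 showed the largest rise among the 9 factors for Cisplatin in depleted cells. It was at 46.9, 46.7 and 43.6 CPM in untreated control cells and at 78.0, 80.1 and 72.2 CPM with the drug, 0.75 ± 0.08 apart on the log2 scale (adjusted p = 9.1e-06). Among the depleted cells it went from 50.2, 50.7 and 46.4 CPM to 108, 95.5 and 116 CPM, 1.11 ± 0.08 apart (adjusted p = 3.1e-07). This was the only change of a factor that reached 2-fold in any comparison, where 23.1% of all genes did so for Cisplatin in depleted cells. The untreated groups overlapped, and the treated ones did not. Under Cisplatin, depletion raised SMG8 by 0.47 ± 0.08 on the log2 scale (adjusted p = 7.9e-04), and the interaction of 0.37 missed the threshold (standard error 0.11, adjusted p = 0.0919).

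SMG9 responded to both interventions. It was at 50.4, 44.9 and 51.0 CPM in untreated control cells, 72.3, 72.3 and 73.8 CPM in untreated depleted cells, 74.9, 85.0 and 79.3 CPM in Cisplatin-treated control cells and 99.7, 95.1 and 88.0 CPM in Cisplatin-treated depleted cells. The 4 conditions did not overlap, in the same order as for UPF1. On the log2 scale, with a standard error of 0.08 each, Cisplatin raised it by 0.71 in control cells (adjusted p = 8.4e-06) and by 0.37 in depleted cells (adjusted p = 0.0011). Depletion raised it by 0.58 without the drug (adjusted p = 2.2e-04) and by 0.24 with it (adjusted p = 0.0226). The last call was lost, with an adjusted p of up to 0.215, when replicate 1 or 3 of the Cisplatin-treated control cells or replicate 1 or 2 of the Cisplatin-treated depleted cells was left out.

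SMG5 and SMG6 both bind phosphorylated UPF1, and in Cisplatin-treated depleted cells SMG5 was at its highest and SMG6 at its lowest. SMG5, the adaptor, was at 121, 115 and 117 CPM in untreated control cells, and at 166, 173 and 173 CPM with Cisplatin. In depleted cells it was at 181, 179.7 and 170.0 CPM without the drug and at 267, 251 and 263 CPM with it. Cisplatin alone and depletion alone thus gave overlapping levels, and the combination lay above both. Its log2 fold changes were 0.54 and 0.56 for Cisplatin in control and depleted cells and 0.59 and 0.61 for depletion in untreated and treated cells (standard error 0.06 each, adjusted p between 6.7e-06 and 3.1e-05). The interaction was 0.02 (standard error 0.08, adjusted p = 0.920) and was not called.

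SMG6, the endonuclease, passed no test of expression for either intervention alone and fell where both were combined. It was at 44.7, 44.7 and 42.5 CPM in untreated control cells, at 40.9, 47.7 and 46.01 CPM with Cisplatin and at 47.1, 48.5 and 43.2 CPM in untreated depleted cells. These 3 conditions overlapped. In Cisplatin-treated depleted cells it was at 29.7, 28.2 and 25.6 CPM, below every other library. For Cisplatin the log2 fold change was 0.03 ± 0.08 (adjusted p = 0.787) with the control shRNA and −0.73 ± 0.09 (adjusted p = 1.3e-05) with RNF113A depleted. For depletion it was 0.07 ± 0.08 (adjusted p = 0.544) without the drug and −0.69 ± 0.09 (adjusted p = 1.0e-04) with it.

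SMG6 was the only factor called for the interaction, at −0.76 (standard error 0.12, adjusted p = 0.0100), where 2.27% of all genes were called with a negative value, 1.98% with a positive one and 4.25% in all. None of the 9 was called for it at 2-fold or more, and 1.28% of all genes were. Its interaction was called in 12 of 12 fits that each lacked 1 library and stayed between −0.87 and −0.71. In the model without interaction SMG6 was the 1 factor called lower for Cisplatin (log2 fold change −0.35, standard error 0.12, adjusted p = 0.0212), a call that was lost when any 1 of the 3 Cisplatin-treated depleted libraries was left out (adjusted p between 0.056 and 0.0623) and under scaling to library size alone (adjusted p = 0.0947).

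**Figure D2:**
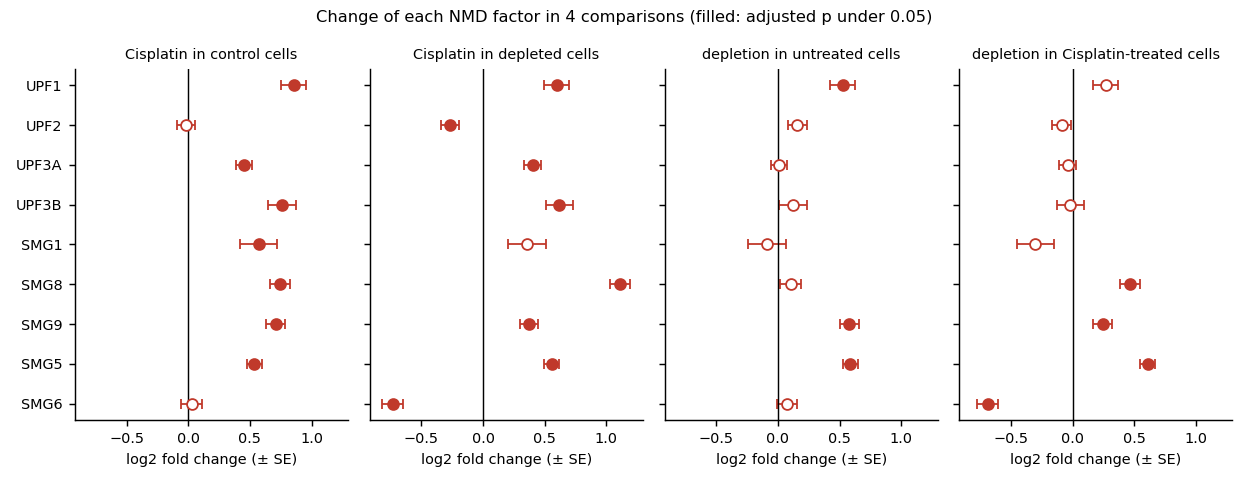
Log2 fold change with its standard error (horizontal axis) of each NMD factor in 4 comparisons, with filled points for an adjusted p under 0.05. SMG6 is at 0.03 and 0.07 for either intervention alone and at −0.73 and −0.69 where it was combined with the other, where SMG5 is at 0.56 and 0.61.

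In the single comparisons, Cisplatin in control cells raised 7 factors and lowered none (28.0% of all genes were called higher and 27.0% lower, 55.0% in all), and Cisplatin in depleted cells raised 6 and lowered 2 (32.4% and 27.8%, 60.2% in all). Depletion in untreated cells raised UPF1, SMG5 and SMG9 and lowered none (12.8% and 14.6%, 27.4% in all), and depletion in Cisplatin-treated cells raised SMG5, SMG8 and SMG9 and lowered SMG6 (21.1% and 21.8%, 42.9% in all). Comparisons with a condition in common share its libraries and are not independent of each other.

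Levels of different genes were compared as exonic reads in CPM divided by the kilobases of annotated exon. In untreated control cells SMG5 was highest, at 25.4 ± 0.64 (SD, n = 3), and SMG6 lowest, at 5.79 ± 0.16 (SD, n = 3). Between them stood UPF3B at 15.1 ± 2.95 (SD, n = 3), SMG9 at 14.7 ± 1.01 (SD, n = 3), UPF1 at 12.6 ± 1.74 (SD, n = 3), UPF3A at 12.4 ± 0.645 (SD, n = 3), UPF2 at 11.6 ± 0.874 (SD, n = 3), SMG8 at 11.4 ± 0.399 (SD, n = 3) and SMG1 at 10.5 ± 1.12 (SD, n = 3). Among these 7 each neighbour overlapped the next over its libraries, so the order of neighbours is not resolved. SMG9, at 13.6 to 15.4, lay above every library of UPF3A, UPF2, SMG8 and SMG1. The exons annotated for SMG1 sum to 18002 bases, which lowers its value on this scale.

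In Cisplatin-treated depleted cells the levels lay further apart. The order of the means was in part another, but no pair of genes whose libraries lay apart in both conditions changed places. SMG5 reached 55.8 ± 1.82 (SD, n = 3) and SMG6 fell to 3.57 ± 0.282 (SD, n = 3) exonic CPM per kilobase. SMG9, UPF1, SMG8 and UPF3B stood together between 23.7 and 29.4 over their libraries, above UPF3A (15.9 to 16.7), SMG1 (11.4 to 13.4) and UPF2 (9.98 to 11.4).

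The lengths of the genes differ widely, and the values of all genes varied with length. SMG6 spans 243933 bases (chr17:1963133-2207065, hg19, minus strand), UPF2 123149 bases (chr10:11962021-12085169, minus strand) and SMG1 121602 bases (chr16:18816175-18937776, minus strand). The other 6 span 36299 bases or less, from UPF1 (chr19:18942747-18979045, plus strand) down to SMG8 with 5848 bases (chr17:57286761-57292608, plus strand). Of the 2700 tested genes over 100 kb with a span in the deposited annotation, Cisplatin lowered 58.5% in control cells and 66.1% in depleted cells, with median log2 fold changes of −0.58 and −0.77, while those of 10 to 30 kb had medians of 0.16 and 0.26. The interaction had a median of −0.22 over 100 kb, where 5.44% of genes were called with a negative value, and of 0.06 at 10 to 30 kb, where 1.18% were. SMG6, UPF2 and SMG1 are thus in the class with the lowest medians, and in control cells their own values of 0.03, −0.02 and 0.57 lay above its median. In depleted cells their values were −0.73, −0.27 and 0.36, against the class median of −0.77. For the interaction they were −0.76, −0.25 and −0.21, where the class had a median of −0.22 and a lower quartile of −0.46. The part of gene length in their values was not tested.

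Intronic reads were counted by the authors as reads within the whole gene, from which the reads inside exons were subtracted here. Of the 9 factors, 8 could be tested. SMG8 could not, since the gene CTD-2510F5.6 spans it on the same strand and almost no genic reads were assigned to it. Intronic reads rose across the whole data set, from 4.55 to 5.08 per 100 exonic reads over the untreated control libraries to 11.1 to 11.6 over the Cisplatin-treated depleted ones. The ratio of each gene was tested with 1 scale per library, so that such a shift is part of its value, and then with a scale of its own for intronic reads, which removes the shift.

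SMG6 and UPF2 gained intronic against exonic reads with Cisplatin. SMG6 had 10.8, 9.05 and 10.6 intronic reads per 100 exonic ones in untreated control cells and 23.2, 18.9 and 23.0 with Cisplatin. In depleted cells it had 13.0, 14.0 and 10.1 without the drug and 33.4, 39.2 and 46.8 with it. No untreated library of SMG6 reached a treated one. Its ratio rose 2.14-fold in control cells (log2 change 1.10, standard error 0.19, adjusted p = 2.9e-04) and 3.2-fold in depleted cells (log2 change 1.68, standard error 0.20, adjusted p = 3.6e-07).

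UPF2 had 5.07, 5.29 and 4.42 intronic reads per 100 exonic ones in untreated control cells and 12.1, 7.06 and 11.1 with Cisplatin. With RNF113A depleted it had 5.92, 7.61 and 6.23 without the drug and 18.9, 19.03 and 23.6 with it. Treated and untreated libraries did not overlap within control or within depleted cells, and replicate 2 was the lowest of the treated control libraries for both genes. The ratio of UPF2 rose 2.01-fold in control cells (log2 change 1.01, standard error 0.21, adjusted p = 0.0016) and 3.11-fold in depleted cells (log2 change 1.63, standard error 0.21, adjusted p = 1.1e-06).

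The exonic and intronic reads of these genes moved apart. Exonic reads of SMG6 were 43.1 ± 1.19 (SD, n = 3) CPM in untreated control cells and 43.1 ± 3.56 (SD, n = 3) with Cisplatin, while its intronic reads were 4.36 ± 0.364 (SD, n = 3) and 9.30 ± 0.782 (SD, n = 3). In depleted cells with Cisplatin its exonic reads were at 26.5 ± 2.10 (SD, n = 3) and its intronic reads at 10.5 ± 0.944 (SD, n = 3) CPM. The intronic reads of SMG6 in treated control and treated depleted cells thus overlapped (8.66 to 10.2 and 9.47 to 11.3), and its exonic reads did not. Exonic reads of UPF2 went from 67.0 ± 5.04 (SD, n = 3) to 66.1 ± 1.30 (SD, n = 3) CPM in control cells with Cisplatin, and its intronic reads from 3.30 ± 0.379 (SD, n = 3) to 6.66 ± 1.70 (SD, n = 3). SMG6 overlaps SRR, on the other strand, over 389 bases at its start, and whether the authors' intronic counts used strand is not given in the sources used here.

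**Figure D3:**
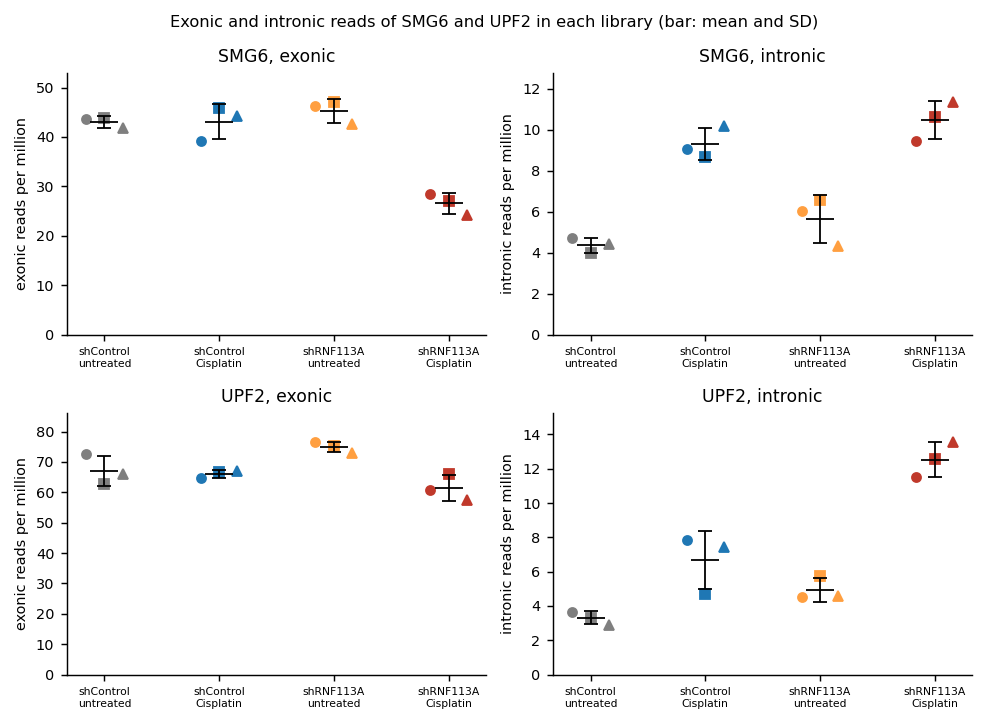
Exonic reads (left) and intronic reads (right) in CPM (vertical axes, linear and starting at 0) of SMG6 and UPF2 in the 12 libraries, with the mean and SD of 3 libraries as bars. The exonic reads of SMG6 are lowest in Cisplatin-treated depleted cells, at 26.5 ± 2.10, where its intronic reads are at 10.5 ± 0.944.

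In control cells Cisplatin raised the ratio of 2 of the 8 factors, SMG6 and UPF2, and lowered none, where 17.5% of the 11488 genes tested were called higher and 1.20% lower. The log2 changes of the other 6 lay between −0.49 (SMG9) and −0.13 (UPF3B), none of them called, and the median over all genes was 0.29. With a scale of its own for intronic reads, 7 of the 8 were called. SMG6 and UPF2 stayed higher, and SMG1, SMG5, SMG9, UPF1 and UPF3A were lower, with log2 changes between −0.72 and −0.53. On that scale 1856 of the 11488 genes were called higher and 1070 lower. Without replicate 3 of the Cisplatin-treated control cells, which had the most intronic reads of the treated control libraries, SMG5, SMG9, UPF1 and UPF3A were called lower, with log2 changes of −0.66, −0.79, −0.58 and −0.51. In that fit 1281 of the 11488 genes were called higher and 434 lower. With equally numbered control libraries treated as pairs, SMG9 was called lower (log2 change −0.49, adjusted p = 0.0151), where 3458 genes were called higher and 330 lower.

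In depleted cells Cisplatin raised the ratio of SMG6, UPF2 and UPF3B and lowered none, where 64.6% of all genes were called higher and 0.766% lower. UPF3B had 3.81, 4.01 and 3.54 intronic reads per 100 exonic ones without the drug and 5.11, 5.75 and 6.37 with it (log2 change 0.59, standard error 0.23, adjusted p = 0.026). Its call was lost without replicate 1 or 3 of the untreated or replicate 2 or 3 of the treated depleted cells, with an adjusted p of up to 0.0902. The median of the 8 factors was 0.37 and that of all genes 0.75. With a scale of its own for intronic reads, SMG6 and UPF2 stayed higher and SMG1, SMG5, SMG9, UPF1 and UPF3A were called lower. On that scale 2637 of all genes tested were called higher and 2248 lower. The direction of these 5 factors and of UPF3B thus rests on the scale.

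Depletion raised the intronic ratio of all 8 factors tested in Cisplatin-treated cells, by log2 changes from 0.75 (SMG5, adjusted p = 0.0048) to 1.30 (UPF3B, adjusted p = 3.95e-05). The share of all genes called higher there was 81.5%, and the medians were 1.01 for the 8 factors and 0.96 for all genes. On a scale of its own for intronic reads none of the 8 was called and SMG5, SMG6 and UPF3A turned to values below 0. Of all genes tested, 1446 were called higher and 1704 lower on that scale. SMG9 had 12.5, 8.12 and 18.4 intronic reads per 100 exonic ones in treated control cells and 29.7, 30.1 and 29.2 in treated depleted cells. UPF3A, with the most intronic reads per 100 exonic ones of the 8, had 33.3, 23.8 and 43.2 in treated control cells and 63.4, 65.8 and 65.2 in treated depleted cells.

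In untreated cells, depletion raised the ratio of SMG9 alone (28.2% of all genes were called higher and 0.139% lower). It had 17.3, 17.5 and 17.5 intronic reads per 100 exonic ones in control cells and 28.5, 26.2 and 24.3 in depleted cells, a log2 change of 0.59 (standard error 0.22, adjusted p = 0.0443). The groups did not overlap, but the call was kept in only 2 of the 12 fits that left out 1 library, those without replicate 2 or 3 of the Cisplatin-treated control cells, and it was lost on a scale of its own for intronic reads (adjusted p = 0.589). The log2 changes of the other 7 lay between 0.16 (SMG5) and 0.58 (UPF3B), and the median over all genes was 0.47.

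**Figure D4:**
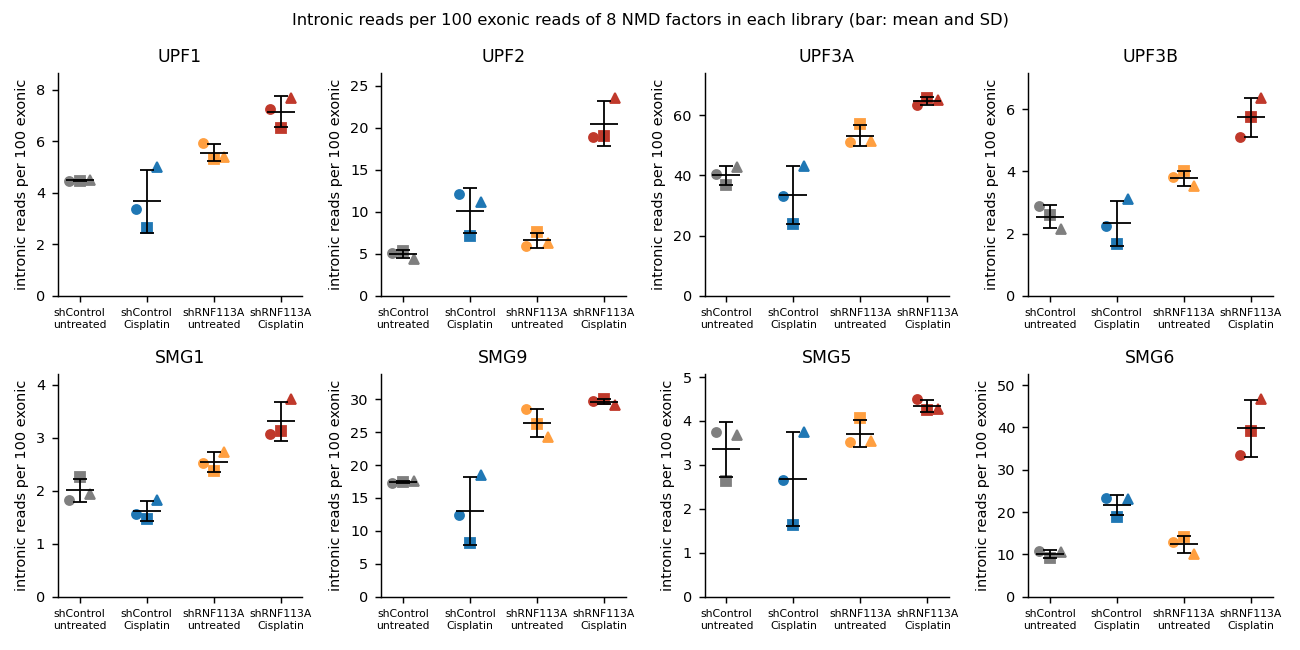
Intronic reads per 100 exonic reads (vertical axes, linear and starting at 0) of 8 NMD factors in the 12 libraries, with the mean and SD of 3 libraries as bars. SMG6 and UPF2 rise with Cisplatin in control and in depleted cells, whereas the treated control libraries of the other 6 spread around or below the untreated ones.

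The intronic ratio also varied with gene length over all genes. Genes over 100 kb had a median log2 change of 0.53 with Cisplatin in control cells and of 1.11 in depleted cells, and those of 10 to 30 kb of 0.22 and 0.67. SMG6 and UPF2, both over 100 kb, had changes of 1.10 and 1.01 in control cells, where the upper quartile of that class was 1.02. In depleted cells they had changes of 1.68 and 1.63, below the upper quartile of 1.77. SMG1, of similar length to UPF2, was at −0.30 in control cells (adjusted p = 0.24) and at 0.38 in depleted cells, neither of them called. The part of gene length in these values was not tested.

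Splicing events of the factors were tested in the authors' rMATS tables, in which each event has reads of an inclusion and of a skipping form in 3 libraries per condition. Those tables do not name the libraries, which are given here by their order as a, b and c. Depending on the comparison, 79 to 96 events of the 9 factors held at least 10 reads in every library, and many of them overlap and share reads. Only 1 event was called, for Cisplatin in depleted cells, where 2.61% of all events were called. None was called for Cisplatin in control cells (0.529% of all events), for depletion in untreated cells (0.906%) or for depletion in Cisplatin-treated cells (2.32%) by edgeR's quasi-likelihood test. At an unadjusted p under 0.05 there were 5 of 79, 0 of 80 and 8 of 96 member events in these 3 comparisons. Among all cassette exons, the kind with most member events, 3195 of 59022, 2260 of 59639 and 4189 of 59768 reached that threshold. Among all mutually exclusive exons, 1082 of 13548, 855 of 13681 and 1726 of 13630 did. For Cisplatin in depleted cells, 2 of 90 member events reached it, as did 5270 of 60616 cassette and 1613 of 14054 mutually exclusive exons. The median absolute difference of the inclusion level was between 0.702 and 0.793 points over the 4 comparisons. The largest was 17.3 points for Cisplatin in control and 13.0 in depleted cells, and 10.3 for depletion in untreated and 14.7 in treated cells, in events not called.

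The called event is the 111-nt UPF3B exon printed above. Its inclusion level (reads of the inclusion form as a share of all its reads, each form divided by its length) was 100% in all 3 untreated depleted libraries, which had 209, 254 and 220 inclusion reads and no skipping read. With Cisplatin it was 97.3%, 96.3% and 90.9%, from 4, 5 and 10 skipping reads beside 362, 333 and 253 inclusion reads. The groups did not overlap, and the call (adjusted p = 0.0329) was lost whenever 1 of these 6 libraries was left out. In control cells the level was 99.1%, 100% and 100% without the drug and between 98.1% and 99.5% with it (adjusted p = 0.712).

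The other 3 segments were chosen after their values were seen, because they are known alternative forms of these factors. The 33-nt UPF1 segment lengthens a loop of the helicase domain. Its inclusion was 20.2%, 10.8% and 21.3% in untreated control cells and 12.9%, 11.7% and 15.7% with Cisplatin. In depleted cells it was 12.1%, 13.9% and 10.6% without the drug and 9.10%, 10.4% and 12.6% with it. All 4 conditions overlapped with at least 1 other, and no comparison was called (adjusted p between 0.706 and 0.761). A retained intron of UPF1 (chr19:18976260-18976369) stayed at or under 1.21% in every library.

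The 99-nt UPF3A exon belongs to the part of the protein that binds UPF2, and it was left out of a large share of the transcripts. Its inclusion was 43.5%, 57.1% and 52.3% in untreated control cells and 40.6%, 39.4% and 44.2% with Cisplatin, and in depleted cells 53.4%, 44.9% and 58.6% without the drug and 52.3%, 51.6% and 47.8% with it. In Cisplatin-treated cells the control and depleted libraries did not overlap, 9.15 points apart in the mean, but the difference was not called (adjusted p = 0.709). The 39-nt UPF3B exon was mostly skipped, with inclusion between 0.857% and 4.75% over the 12 libraries.

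**Figure D5:**
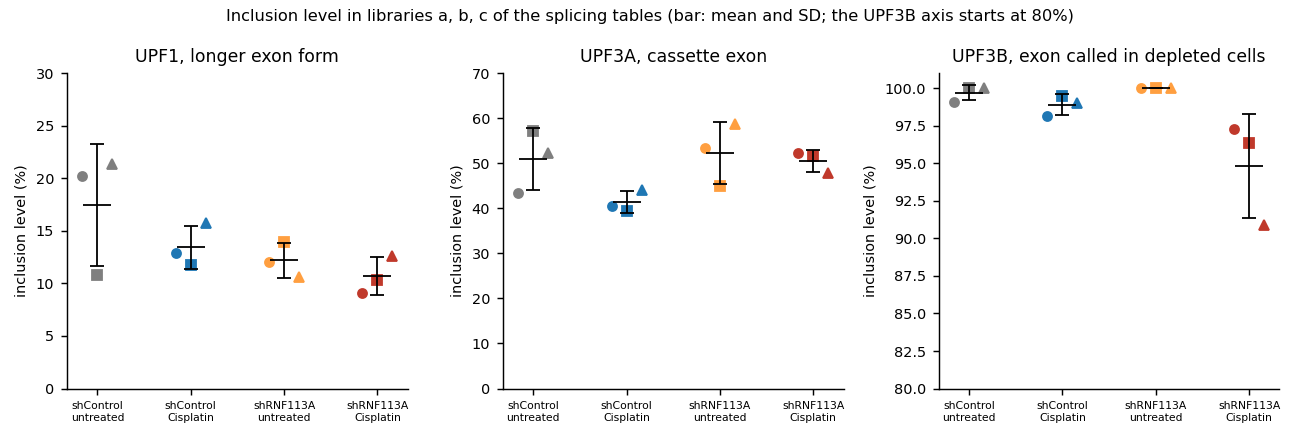
Inclusion level in percent (vertical axes, linear, the first 2 starting at 0) of the 33-nt UPF1 segment, the 99-nt UPF3A exon and the 111-nt UPF3B exon in libraries a, b and c of each condition, with the mean and SD as bars; the UPF3B axis starts at 80%. The UPF3B exon is at 97.3%, 96.3% and 90.9% in Cisplatin-treated depleted cells and at 98.1% or more in the other 9 libraries.

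The rest of the pathway was read from lists of known genes. Over all genes tested, Cisplatin raised 34.8% and lowered 32.1%, and depletion raised 23.5% and lowered 24.0%. Of 13 other NMD and termination factors, Cisplatin raised 5 and lowered 4, shares near those of all genes. MOV10, an RNA helicase that works with UPF1, rose most (log2 fold change 0.82, from means of 41.1 to 74.0 CPM in control cells). CTIF, which supports the first round of translation from the nuclear cap-binding complex, fell most (−3.47, from 24.7 to 2.00 CPM). Depletion raised 2 and lowered 2 of them, with DHX34, a helicase that aids UPF1 phosphorylation, rising by 0.68 and RUVBL1, an ATPase bound to SMG1, falling by 0.31 on the log2 scale.

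Of 12 exon junction complex genes, Cisplatin raised 8 and lowered 1 (34.8% and 32.1% of all genes). ACIN1, a peripheral subunit, rose by 0.70, and MAGOHB, a core subunit, fell by 0.55 on the log2 scale. Depletion raised 2 and lowered none (23.5% and 24.0% of all genes), PNN, another peripheral subunit, by 0.67. The median of the 12 for Cisplatin was 0.20.

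Of 21 decapping and decay genes, Cisplatin raised 9 and lowered 7, against 34.8% and 32.1% of all genes. DCP1B, a decapping cofactor, rose by 1.32 and PARN, a poly(A) ribonuclease, fell by 1.48 on the log2 scale. Depletion raised 3 and lowered 5 (23.5% and 24.0% of all genes), EDC4, a decapping scaffold, rising by 0.43 and PARN falling by 0.39. None of these 3 lists held a gene called for the interaction.

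Of 16 RNAs known as NMD targets, Cisplatin raised 9 and lowered 4, where 34.8% and 32.1% of all genes were called, with a median of 0.42 against 0.03 over all genes. ATF3, a stress transcription factor, rose by 3.85 and SLC7A11, a cystine transporter, fell by 0.67 on the log2 scale. Many of these RNAs also answer to stress and DNA damage signals, and the part of NMD in their levels was not tested. Depletion raised 4 and lowered 1 (23.5% and 24.0% of all genes), SNHG15, a host gene of small nucleolar RNAs, rising by 0.38 and DDIT3, a transcription factor of the stress response, falling by 1.36. The interaction was called for 3 of them, all with a negative value (2.27% of all genes), DDIT3 having the largest (−1.81, standard error 0.31, adjusted p = 0.0125).

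Over the 12 libraries, the genes whose log2 CPM ran closest to UPF1 among the 9779 genes whose mean reached 10 CPM were ANKRD13B (Pearson r = 0.994), NOL6 (0.989) and ATXN2L (0.986). Closest to SMG1 were TAF1 (0.963), DGKH (0.962) and FAT1 (0.955). Among the factors themselves, UPF1 ran with SMG9 (0.950), SMG5 (0.907) and UPF3B (0.899) and against SMG6 (−0.615). These values describe 12 libraries in 4 conditions that share the same contrasts.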

How the data were processed

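Stranded mRNA libraries of A549 cells were sequenced as paired ends, and the reads of both runs were pooled per library. Per the authors' methods and the submitters' processing notes, bcl2fastq 2.17, cutadapt and Bowtie2 (removal of unwanted reads) preceded alignment to hg19 with STAR 2.5.2b. The authors deposited raw counts per gene and strand from STAR, raw counts within exons and within whole protein-coding genes of Gencode release 19 from HTSeq (strand setting not given in the sources used here), and read counts per splicing event from rMATS. P-value, false discovery rate and inclusion difference columns of those tables hold the authors' own comparisons and were not used.

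Counts on the strand of the gene were tested in edgeR 4.0.16 (R 4.3.3) by the quasi-likelihood test with TMM scaling and its filter on low counts, adjusted by Benjamini-Hochberg over all genes and called under 0.05. 1 model held terms for Cisplatin and depletion, and a second added their interaction and gave the 4 single comparisons. Genic minus exonic counts were taken as intronic, and the intronic to exonic ratio, like the inclusion to skipping ratio of events with at least 10 reads in every library, was tested in edgeR with a term for each library. DESeq2 1.42.0, other scalings and filters, and each library left out in turn were alternatives. On simulated data, 200 of 200 genes changed 2-fold by Cisplatin were recovered among 15051 genes (10 others were called), and 150 of 200 intronic ratios changed 2-fold for Cisplatin in control cells among 11488 (6 others). For depletion in Cisplatin-treated cells, 48 of 200 retained introns changed 2-fold and 196 of 200 changed 4-fold were recovered among 3541. The changed genes and introns were drawn only from those above a minimum mean level, and no shift of intronic reads over all genes was simulated. The recovery of cassette exons, or of events with few reads such as the called UPF3B exon, was not tested.

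All 9 members, the targeted gene, the called genes with the largest rise and fall of each list, and called events were named. The members, lists and tests were chosen with earlier results of these data known. Equally numbered control libraries deviated together from their group means (r = 0.635, 0.733 and 0.479 over 9779 genes) and were treated as pairs in an alternative. Untreated replicate 1 also ran with treated replicate 3 (r = 0.592), and untreated replicate 3 with treated replicate 1 (r = 0.537). These values set replicate 2 apart from 1 and 3 and do not show a pairing of 1 with 1 or 3 with 3. The other comparisons gave no such pattern.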

Additional observations from a re-analysis of the deposited data

Results flagged for a closer look

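4 genes of the factors and the lists had an effect of Cisplatin that differed between control and depleted cells by the interaction test of edgeR. SMG6, the endonuclease of the pathway, had an interaction of −0.76 on the log2 scale (adjusted p = 0.0100), and it was called under 18 of 18 alternatives, with a highest adjusted p of 0.0382. Its level was below that of the other 9 libraries in 3 of 3 Cisplatin-treated depleted libraries.

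The other 3 are RNAs known as NMD targets. DDIT3, a transcription factor of the stress response, stood at 11.8, 8.94 and 11.4 CPM in untreated control cells and at 118, 205 and 134 CPM with Cisplatin, but at 8.36, 7.80 and 8.33 CPM in untreated depleted cells and at 40.1, 35.5 and 23.4 CPM with the drug. Its interaction was −1.81 (adjusted p = 0.0125) and was called under 18 of 18 alternatives. Each of the 6 Cisplatin-treated libraries lay above all untreated ones, and the rise was smaller in depleted cells.

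GADD45A, a growth arrest gene induced by DNA damage, rose from 12.3, 14.0 and 12.2 CPM to 143, 246 and 155 CPM in control cells, and from 17.6, 19.6 and 18.8 CPM to 131, 119 and 150 CPM in depleted cells. Its interaction of −0.99 (adjusted p = 0.0431) was called under 9 of 18 alternatives, with a highest adjusted p of 0.0952. GAS5, a host of small nucleolar RNAs, rose from 82.9, 76.9 and 87.0 CPM to 170, 168 and 199 CPM in control cells, and from 113, 100 and 113 CPM to 174, 175 and 159 CPM in depleted cells. Its interaction of −0.48 (adjusted p = 0.0493) was called under 8 of 18 alternatives, with a highest adjusted p of 0.132. The causes of these differences were not tested.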

How the results depend on the processing

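Of the alternatives to values of single members that were called, 829 kept direction and call, 30 lost the call and 4 reversed. Of those to values not called, 722 stayed so, 42 became calls and 36 reversed. With at least 2-fold required, 0 members were called for Cisplatin, depletion and the interaction, 0 for Cisplatin in control cells, 1 in depleted cells and 0 for depletion in untreated or treated cells. DESeq2 called 2 members for the interaction (SMG9 besides SMG6). With equally numbered libraries as a replicate block, 8, 4 and 1 members were called for Cisplatin, depletion and the interaction, and 7, 9, 3 and 4 in the 4 single comparisons (the 9 include SMG1, adjusted p = 0.041); the block within control cells alone called 7, and for the intronic ratio 3 in place of 2. The intronic counts with the block over all groups were 2, 3, 1 and 8. No paired analysis was possible because the splicing tables do not name their libraries.

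With 1 library left out, the members called ranged from 7 to 9 for Cisplatin, 4 to 5 for depletion, 1 to 1 for the interaction, 7 to 7 and 8 to 9 for Cisplatin in control and depleted cells, and 3 to 3 and 3 to 5 for depletion in untreated and treated cells. For the intronic ratio they ranged from 2 to 6 for Cisplatin in control cells (6 without Cisplatin-treated control replicate 3), 2 to 5 in depleted cells (5 without Cisplatin-treated control replicate 2 or 3), 0 to 4 for depletion in untreated cells (4 without Cisplatin-treated control replicate 2, 3 without replicate 3) and 8 to 8 in treated cells. The splicing call fell to 0 to 0 without any 1 library and to 0 with a difference of 10 or 20 points required.

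Own scaling of intronic and exonic reads gave 7, 7, 0 and 0 members for Cisplatin in control and depleted cells and depletion in untreated and treated cells. Over all genes tested it called 1856, 2637, 432 and 1446 higher and 1070, 2248, 527 and 1704 lower, in the same order. By its construction it removes the shift of all genes. It reversed the log2 change for Cisplatin in depleted cells of SMG1 (−0.37), SMG5 (−0.52), SMG9 (−0.58), UPF1 (−0.38), UPF3A (−0.47) and UPF3B (−0.15), for depletion in untreated cells of SMG1 (−0.14), SMG5 (−0.32), SMG6 (−0.19), UPF1 (−0.17), UPF2 (−0.062) and UPF3A (−0.066), and for depletion in treated cells of SMG5 (−0.25), SMG6 (−0.12) and UPF3A (−0.0020).

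The other reversals were of values not called. Library size scaling gave 0.00022 for depletion in UPF3A and 0.085 for Cisplatin in control cells in UPF2. DESeq2 gave −0.0075 for the interaction of SMG5 and −0.0017 for depletion in untreated cells in UPF3A, for which unstranded counts gave −0.00024. With 1 library left out, the values ranged for depletion from −0.0022 to 0.070 (UPF2) and −0.020 to 0.099 (UPF3B), for the interaction from −0.042 to 0.037 (SMG5), for Cisplatin in control cells from −0.065 to 0.043 (UPF2) and −0.012 to 0.10 (SMG6), for depletion in untreated cells from −0.032 to 0.033 (UPF3A), −0.019 to 0.25 (UPF3B) and −0.17 to 0.044 (SMG1), and for depletion in treated cells from −0.097 to 0.012 (UPF3B). The intronic ratio ranged from −0.39 to 0.080 (UPF3B, Cisplatin in control cells) and −0.0014 to 0.25 (SMG5, depletion in untreated cells). The cause was not tested. Depth limits the splicing result, which rests on 4, 5 and 10 skipping reads.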
